A study of Mus musculus with 5 samples.

Results

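The clock repressors described here are 8 genes, Per1, Per2, Per3, Cry1, Cry2, Ciart, Nr1d1 and Nr1d2, out of 17228 genes in a table of heart RNA-seq from mice. The members were chosen by gene symbol, as the textbook repressors of the circadian clock, and they were proposed with the db/db against WT values of an earlier look at these libraries known. Values of that comparison are therefore given for the members as a description, with fold changes, standard errors and a count of calls but no p-value, and no support is drawn from them. The contrast of sexes and the interaction of sex with genotype, which the choice did not use, are given with p-values. The 5 libraries came from hearts of mice at 6 months of age. The db/db group held 3 libraries, 2 from females and 1 from a male, of mice labelled KsJ-Lepr db/Lepr db. These animals are homozygous for a mutation in the leptin receptor gene and become obese and diabetic. The WT group held 2 libraries, 1 from a female and 1 from a male, of nondiabetic mice. The strain label is C57BL in both groups and KsJ is named only for db/db, so genotype and strain background cannot be told apart. The growth protocol speaks of male mice on a standard diet under a light/dark cycle, whereas 3 libraries are labelled female. It gives no hour at which hearts were taken, and the part of collection time in the values below was not tested. The labels do not state that the db/db females were separate animals, and the spread between these libraries may be partly technical.

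The circadian clock of mammalian cells is a feedback loop of transcription. The activators Clock (or Npas2) and Arntl, also called Bmal1, bind E-box sequences and switch on the Per, Cry, Nr1d and Ciart genes, whose proteins then repress the activators. PER and CRY proteins act in a complex on the Clock and Arntl dimer, while the nuclear receptors encoded by Nr1d1 and Nr1d2, also called Rev-erb alpha and beta, silence Arntl through ROR elements. In mouse peripheral tissues such as heart and liver, Arntl RNA peaks around the end of the night, the Rev-erb RNAs peak during the day, Per RNAs peak later around dusk and Cry1 RNA peaks last, so a single collection time samples each gene at another point of its own cycle.

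The libraries held 8356099 to 10381326 estimated counts, and 12540 genes passed the filter on low counts, all 8 repressors among them. Lepr, the mutated gene, had 3, 7 and 5 counts in the db/db libraries, against 37 and 13.9 counts in the WT libraries (log2 fold change -2.21, SE 0.56, edgeR adjusted p = 0.106). The levels go the way of the labels, although a gene total does not show the mutation itself. Cardiomyocyte markers carried the heart label: the sum over 6 of 6 markers was 65940 to 87237 CPM (counts scaled by TMM-adjusted library size) in db/db and 54641 and 59072 CPM in WT, so the groups did not overlap. The 5 white fat markers together reached at most 2.43 CPM in db/db and 0.875 CPM in WT. Red blood cell markers summed to 4733 to 5889 CPM in db/db, against 2388 CPM in the WT female and 6812 CPM in the WT male. Brown fat markers were also higher, at 56.7 to 85.4 CPM in db/db against 36.8 and 49.0 CPM in WT. Atrial markers were lower, at 246 to 363 CPM in db/db against 404 and 503 CPM in WT, as were pericyte and smooth muscle markers, at 773 to 834 CPM in db/db against 932 and 863 CPM in WT. Of the 10 cell type lists, no gene that passed the filter was called between genotypes by edgeR. None of the 5 white fat genes, 1 of 2 brown fat genes, 2 of 4 atrial genes and 2 of 3 B cell genes passed that filter. The part of cell make-up in the repressor values was not tested. In bulk tissue, fewer cells of a type and less RNA per cell cannot be told apart.

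Ciart showed the largest difference among the 8 repressors. Ciart, also called Chrono, encodes a repressor that binds Arntl protein and is itself switched on by the activators (chromosome 3, 95878500 to 95882242 in GRCm38.p6). Its level was 17.2, 17.3 and 25.1 TPM (which scales for depth and transcript length) in the db/db females and male, against 2.97 TPM in the WT female and 1.46 TPM in the WT male. These levels rest on 198, 193 and 241 counts in db/db and on 29 and 15 counts in WT. Every db/db library lay far above both WT libraries, and the db/db male was the highest of the 5. Ciart averaged 23.9 ± 7.5 CPM in db/db and 2.23 ± 0.84 CPM in WT (SD, n = 3 and n = 2). The fitted log2 fold change was 3.39 (SE 0.33), or 10.5-fold.

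Per1 and Per2, which encode the PERIOD proteins that carry the CRY proteins into the nucleus, were also higher in db/db. Per1 (chromosome 11, 69095114 to 69110001), which also responds directly to glucocorticoids and cAMP, had 19.3, 17.6 and 19.5 TPM in db/db, against 10.95 TPM in the WT female and 4.71 TPM in the WT male. The db/db libraries lay close together, whereas the WT male was well below the WT female. Its log2 fold change was 1.59 (SE 0.25). Per2 (chromosome 1, 91415977 to 91459402) had 4.96, 4.02 and 4.14 TPM in db/db, against 1.53 and 0.91 TPM in the WT female and male. Again the groups did not overlap, and the log2 fold change of Per2 was 2.14 (SE 0.22). Ciart, Per1 and Per2 were the 3 repressors called as higher by edgeR at an adjusted p under 0.05 over all genes, a rule that 0.67% of tested genes met. No repressor was called as lower, as 0.359% of genes were. Since the genes were proposed with this contrast known, that count is a description and nothing is read from it. Per1 was not called without the WT male (log2 fold change 1.2) or without the db/db male (1.46).

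Per3, the period gene that is dispensable for the core loop in mice, behaved differently from its paralogs (chromosome 4, 150997018 to 151044723). It had 3.36, 3.39 and 4.04 TPM in db/db, against 3.68 TPM in the WT female and 1.61 TPM in the WT male. The WT female thus sat within the db/db range in TPM and only the WT male was low. In CPM the WT female, at 16.6, lay just below the lowest db/db library, at 16.8. The log2 fold change of 0.65 (SE 0.29) was 0.19 without the WT male and 1.34 without the WT female. The deposited table lists Per3 on the plus strand, while the GENCODE M21 annotation of the same genome build has it on the minus strand, so its counts are uncertain.

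The cryptochrome genes, whose proteins are the main repressors of the Clock and Arntl dimer, differed little between genotypes. Cry1 (chromosome 10, 85119123 to 85185284) had 4.19, 4.26 and 5.09 TPM in db/db, against 4.82 TPM in each WT library. The groups overlapped, and the log2 fold change of Cry1 was 0.22 (SE 0.23), with the sign turning to -0.08 on the log2(TPM + 1) scale. On that scale the median of all genes was -0.24. Cry2 (chromosome 2, 92403646 to 92434214) had 8.45, 10.8 and 9.23 TPM in db/db, against 8.99 and 7.59 TPM in the WT female and male. Its log2 fold change was 0.48 (SE 0.17), and its groups overlapped in TPM but not in CPM. Cry2 exons share 295 bases with D930015M05Rik on the other strand, and whether the counting used strand is not stated in these sources.

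The Rev-erb genes, which encode heme-binding nuclear receptors that repress Arntl and many metabolic genes, overlapped between genotypes. Nr1d1 (chromosome 11, 98767865 to 98775377) had 102.7, 82.4 and 57.8 TPM in db/db, against 104.7 and 72.9 TPM in the WT female and male. The male was the lowest library of each genotype. The log2 fold change of Nr1d1 was 0.15 (SE 0.18), and it was -0.03 when counts were scaled to library totals and -0.15 on the log2(TPM + 1) scale. These scalings also moved the median of all genes, to -0.19 and -0.24. Nr1d1 shares 263 exonic bases, 8.55% of its exons, with Thra on the opposite strand, so reads there cannot be assigned with certainty. Thra, which encodes a thyroid hormone receptor, had a log2 fold change of -0.12 (SE 0.14). Nr1d2 (chromosome 14, 18196622 to 18239106) had 15.6, 14.5 and 16.1 TPM in db/db, against 19.7 and 11.4 TPM in the WT female and male. In TPM its db/db libraries all lay between the WT libraries. In CPM the db/db male, at 69.5, lay above both the WT female (56.1) and the WT male (38.9). The log2 fold change of Nr1d2 was 0.31 (SE 0.19).

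**Figure D1:**
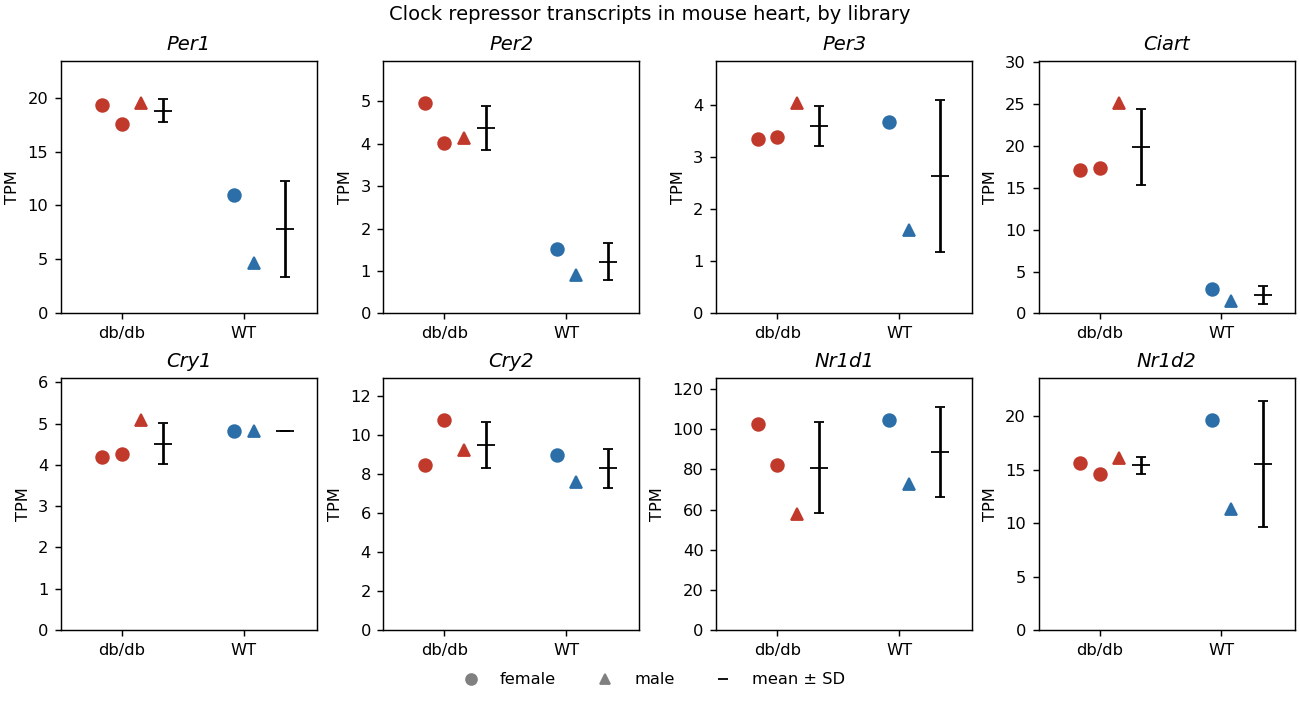
TPM of the 8 clock repressors in each heart library (circles, females; triangles, males), with the mean ± SD of db/db (n = 3) and WT (n = 2) as black bars. Ciart, Per1 and Per2 separate the genotypes, whereas Per3, Cry1, Cry2, Nr1d1 and Nr1d2 overlap, and the WT male lies below the WT female for Per1, Per2, Per3, Ciart, Cry2, Nr1d1 and Nr1d2.

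The TPM scale allows levels to be compared between genes. Nr1d1 was the most abundant repressor in all 5 libraries, with a mean of 81.0 ± 22.5 TPM in db/db (SD, n = 3) and 88.8 ± 22.5 TPM in WT (SD, n = 2). In db/db the next were Ciart (19.8 ± 4.5 TPM), Per1 (18.8 ± 1.1 TPM) and Nr1d2 (15.4 ± 0.8 TPM), then Cry2 (9.49 ± 1.19 TPM), Cry1 (4.51 ± 0.50 TPM), Per2 (4.37 ± 0.51 TPM) and Per3 (3.60 ± 0.38 TPM). Ciart and Per1 lay within their spread of each other there, as did Cry1 and Per2. In WT the order below Nr1d1 was Nr1d2 (15.5 ± 5.9 TPM), Cry2 (8.29 ± 0.99 TPM), Per1 (7.83 ± 4.41 TPM), Cry1 (4.82 TPM in each library), Per3 (2.64 ± 1.46 TPM), Ciart (2.22 ± 1.07 TPM) and Per2 (1.22 ± 0.44 TPM). Per1 was within its spread of both Cry2 and Cry1 in WT, and Per3 and Ciart were within their spread of each other. In the WT male Cry1 (4.82 TPM) lay above Per1 (4.71 TPM). Ciart thus ranked 3, 3 and 2 of the 8 genes in the db/db libraries and 7 in each WT library, while Per2 was the scarcest repressor in both WT libraries and Per3 was the scarcest in all db/db libraries. All 8 log2 fold changes were positive, with a median of 0.57, against -0.01 for all tested genes. In CPM, 5 of the 8 repressors (Per1, Per2, Per3, Cry2 and Ciart) had no overlap between the groups and were higher in db/db, as did 15.1% of all tested genes.

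Promoter sequences are shown for Ciart and Per1, whose TPM separated the genotypes, and beside them for Cry1, Nr1d1 and Per3, which overlapped. Per2, which also separated them, had no window. They run 5′ to 3′ on the strand of the gene, in windows of 300 bases around the annotated start, and come from RefSeq on GRCm38.p6, which had windows for 7 of the 8 genes. Capitals mark matches on either strand to the E-box CACGTG, the E-box-like CACGTT, the ROR element AGGTCA, the D-boxes TTATGTAA and TTACGTAA, and the cAMP element TGACGTCA. None of these motifs overlap each other in the windows shown. On the minus strand the windows are chr3:95882179-95882478 for Ciart, chr10:85185005-85185304 for Cry1, chr11:98775328-98775627 for Nr1d1 and chr4:151044616-151044915 for Per3. On the plus strand, chr11:69098699-69098998 is the upstream window of Per1. Per1 as listed begins further upstream, at 69095114, and that start had no window.
Ciart: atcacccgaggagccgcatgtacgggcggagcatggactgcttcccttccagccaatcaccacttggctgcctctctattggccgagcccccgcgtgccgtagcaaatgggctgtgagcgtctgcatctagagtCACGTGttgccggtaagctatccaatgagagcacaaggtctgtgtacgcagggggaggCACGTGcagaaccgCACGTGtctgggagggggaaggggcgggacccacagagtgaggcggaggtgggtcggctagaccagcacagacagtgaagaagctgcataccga
Per1: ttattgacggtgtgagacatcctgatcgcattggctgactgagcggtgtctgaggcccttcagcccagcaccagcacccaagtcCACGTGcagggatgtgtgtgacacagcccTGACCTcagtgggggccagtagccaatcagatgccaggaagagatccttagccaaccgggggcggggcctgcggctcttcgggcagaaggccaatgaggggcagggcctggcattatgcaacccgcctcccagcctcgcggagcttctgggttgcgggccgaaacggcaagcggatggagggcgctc
Cry1: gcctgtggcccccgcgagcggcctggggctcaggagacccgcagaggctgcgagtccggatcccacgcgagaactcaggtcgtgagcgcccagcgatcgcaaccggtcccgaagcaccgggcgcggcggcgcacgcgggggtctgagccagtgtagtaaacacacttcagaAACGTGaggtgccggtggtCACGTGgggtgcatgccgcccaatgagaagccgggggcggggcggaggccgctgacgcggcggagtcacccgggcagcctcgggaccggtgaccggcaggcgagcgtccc
Nr1d1: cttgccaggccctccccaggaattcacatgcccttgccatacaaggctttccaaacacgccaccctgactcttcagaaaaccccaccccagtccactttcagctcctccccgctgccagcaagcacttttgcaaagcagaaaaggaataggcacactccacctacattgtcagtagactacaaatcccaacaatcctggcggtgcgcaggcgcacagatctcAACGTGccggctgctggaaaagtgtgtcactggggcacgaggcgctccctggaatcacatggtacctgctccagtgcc
Per3: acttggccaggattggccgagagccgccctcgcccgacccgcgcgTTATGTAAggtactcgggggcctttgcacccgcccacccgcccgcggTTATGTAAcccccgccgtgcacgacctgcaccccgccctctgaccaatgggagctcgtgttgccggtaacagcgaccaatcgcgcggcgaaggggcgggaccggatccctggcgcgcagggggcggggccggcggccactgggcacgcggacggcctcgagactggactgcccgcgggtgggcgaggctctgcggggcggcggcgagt

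The Ciart window held 3 E-boxes, at -116, -58 and -44 from the start, and the Per1 window held 1, at -166, beside a ROR element on the other strand at -137. An E-box was present in 7.15% of the 32851 promoter windows of all genes and a ROR element in 16.3%. Cry1, whose level overlapped between genotypes, also held an E-box, at -60, and an E-box-like match at -79, so an E-box in the window was not particular to the repressors whose groups separated. Nr1d1 held 1 E-box-like match, at -28, as did Cry2, at -166; this motif was in 4.68% of windows. Per3 held 2 D-boxes, the site of the output factors Dbp, Tef and Hlf, at -205 and -158, and TTATGTAA occurred in 0.938% of windows. Nr1d2 held a ROR element at -77, and the downstream window of Per1 (chr11:69099902-69100201) held none of these motifs. TTACGTAA, in 0.119% of all windows, and the cAMP element, in 1.79%, matched no window of the 7 genes. A match is a string of letters and not a shown binding site, and a missing match concerns only these letters in these 300 bases.

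The relation between repressors can be read within a library, where depth cancels. Per2 relative to Nr1d1 was -4.37, -4.36 and -3.80 (log2 ratio of TPM) in db/db, against -6.10 and -6.32 in the WT female and male, a difference of 2.03 between the means. Per1 relative to Nr1d1 was -2.41, -2.23 and -1.57 in db/db, against -3.26 and -3.95 in WT. Ciart relative to Nr1d1 was -2.58, -2.25 and -1.21 in db/db, against -5.14 and -5.64 in WT. Per1, Per2 and Ciart were thus higher relative to Nr1d1 in every db/db library than in either WT library. All 3 ratios were highest in the db/db male. Nr1d1 itself overlapped between genotypes, so these ratios largely repeat the fold changes of the 3 genes. All 3 follow Nr1d1 in the textbook order of peaks, but so do Per3, Cry2 and Cry1, whose ratios overlapped. Per3 relative to Nr1d1 was -4.93, -4.60 and -3.84 in db/db, against -4.83 and -5.50 in WT. For Cry2 the ratios were -3.60, -2.93 and -2.65 in db/db, against -3.54 and -3.26 in WT. Cry1 relative to Nr1d1 was -4.62, -4.27 and -3.51 in db/db, against -4.44 and -3.92 in WT. Nr1d1 relative to its paralog Nr1d2 overlapped as well, at 2.72, 2.50 and 1.85 in db/db against 2.41 and 2.68 in WT. Among the period genes, Per1 relative to Per3 was 2.52, 2.37 and 2.27 in db/db, against 1.57 and 1.55 in the WT libraries, so the WT female and male shared this ratio although their levels of both genes differed. Per2 relative to Cry1, the last gene of the cycle, was 0.24, -0.08 and -0.30 in db/db, against -1.66 and -2.41 in WT.

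Relative to the activator Arntl, each of the 8 repressors was higher in every db/db library than in either WT library. Arntl itself was lower in every db/db library, so a gene with an unchanged level would separate in the same way. The share of all genes that do so was not computed, and nothing about the repressors is read from this count. Ciart relative to Arntl was 2.16, 2.73 and 4.21 (log2 ratio of TPM) in db/db, against -1.68 and -2.62 in the WT female and male, so the RNA of the repressor exceeded that of the activator in each db/db library and the reverse held in each WT library. Per2 relative to Arntl was 0.37, 0.63 and 1.62 in db/db, against -2.63 and -3.30 in WT. Nr1d1 relative to Arntl was 4.74, 4.99 and 5.42 in db/db, against 3.46 and 3.02 in WT. Within the db/db group these 3 ratios had the same order, lowest in female 1 and highest in the male. Arntl, which all 3 ratios share, ran in the reverse order there, at 3.83, 2.60 and 1.35 TPM. Dbp, an output gene driven by E-boxes, kept a near-constant relation to Per1: the log2 ratio of Per1 to Dbp was -2.81, -2.85 and -3.04 in db/db and -2.70 and -3.07 in WT. The level of Ciart relative to Dbp did separate the groups, at -2.98, -2.87 and -2.67 in db/db against -4.58 and -4.76 in WT.

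**Figure D2:**
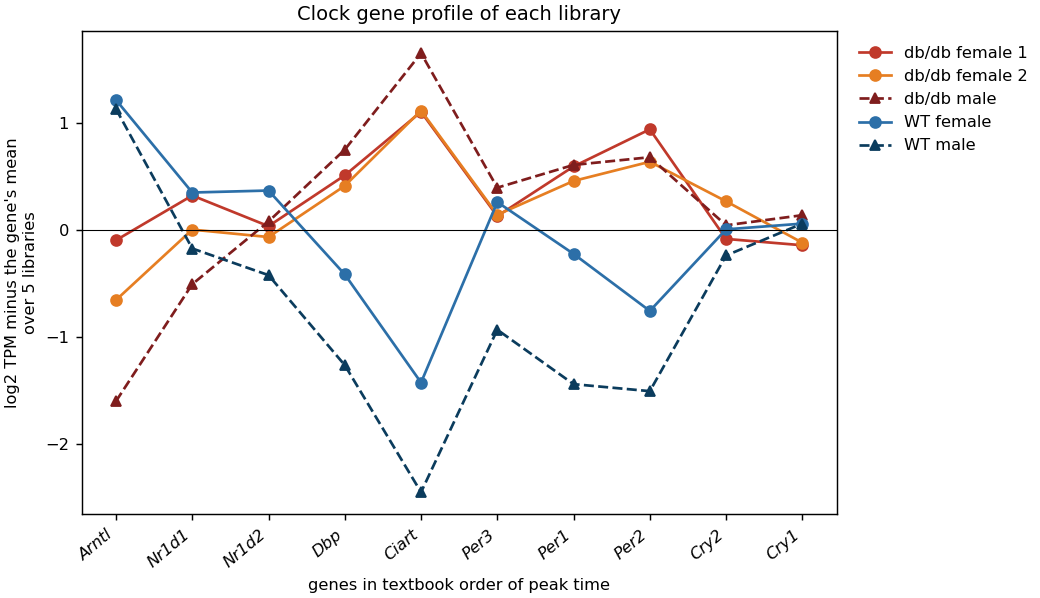
Level of 10 clock genes in each library, as log2 TPM minus the mean of the gene over the 5 libraries, with genes in the textbook order of peak time; db/db in red and orange, WT in blue, males dashed. The db/db libraries lie below both WT libraries for Arntl and above them for Dbp, Ciart, Per1 and Per2, and the lines of all libraries come together at Cry2 and Cry1.

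The other genes of the clock pathway were taken from lists of 7 activators, 6 output factors and 18 modifiers and partners of the repressors. Of the 30 that passed the filter on low counts, 3 rose, 1 fell and 26 did not pass, against 0.67% of all tested genes called as higher and 0.359% as lower. These lists too were chosen with the genotype values known, so their p-values are not independent evidence of a direction. Among the activators Arntl fell, with 3.83, 2.60 and 1.35 TPM in db/db against 9.50 and 8.96 TPM in WT, a log2 fold change of -1.63 (SE 0.28, edgeR adjusted p = 0.0172). The 7 activators had a median log2 fold change of -0.87. Clock, the partner of Arntl, had -0.52 (edgeR adjusted p = 0.163) and its paralog Npas2 had -1.32 (adjusted p = 0.18). Arntl2 had -0.87 (adjusted p = 0.397). Rorb, at most 12 counts in any library, had -1.75 (adjusted p = 0.292). None of these passed. With sex as a covariate Clock, Npas2 and Timeless were also called as lower. That fit called 252 of the 12540 tested genes as lower, against 45 in the fit without sex.

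Among the 6 output factors, with a median of 0.47, Dbp and Tef rose. These PAR bZIP transcription factors carry the rhythm to D-box genes. Dbp had 135.2, 126.4 and 159.7 TPM in db/db, against 71.2 and 39.55 TPM in WT, a log2 fold change of 1.69 (SE 0.22, edgeR adjusted p = 0.00637). Tef had a log2 fold change of 1.02 (edgeR adjusted p = 0.0195) but was not called by limma on the log2(TPM + 1) or log2(TPM + 0.1) scale. Their relative Hlf had 0.58 (adjusted p = 0.241), Bhlhe41, a further E-box repressor, 0.37 (adjusted p = 0.369), and the D-box repressor Nfil3 -0.24 (adjusted p = 0.669). Among 17 tested modifiers, with a median of 0.05, Usp2 rose. Usp2, a deubiquitinase that acts on clock proteins in mice, had a log2 fold change of 1.09 (edgeR adjusted p = 0.0133). Timeless had -0.79 (adjusted p = 0.108) and Id2 -0.49 (adjusted p = 0.335). Without the WT male none of the 4 genes was called and without the WT female Dbp alone was.

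**Figure D3:**
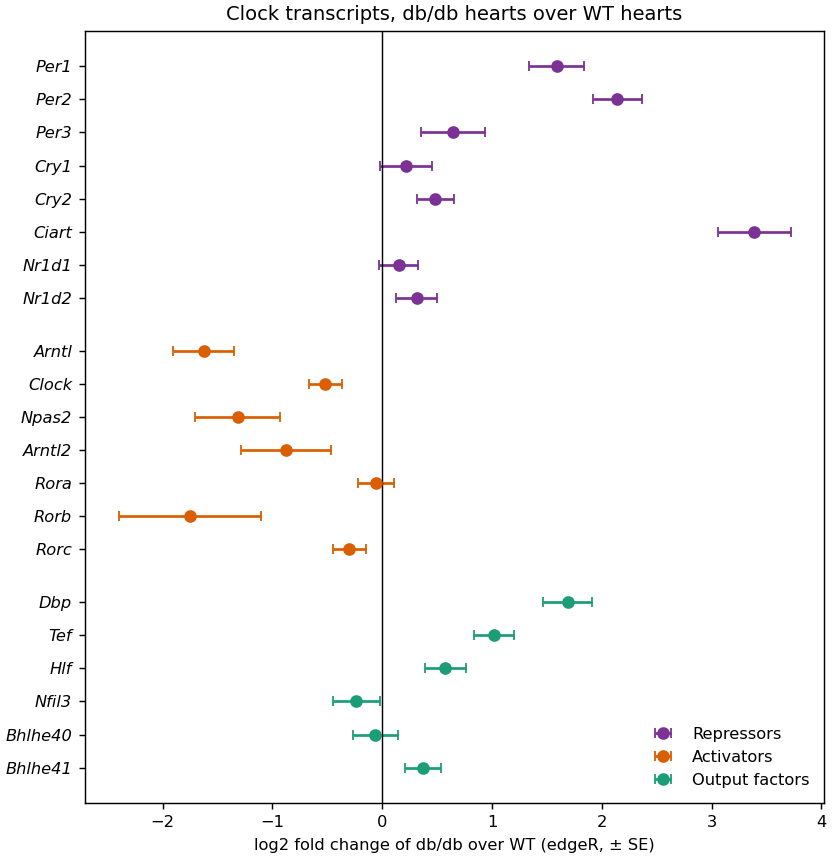
Log2 fold change of db/db over WT for clock repressors, activators and output factors, from edgeR on all 5 libraries, with bars of 1 standard error. Ciart at 3.39, Per2 at 2.14 and Per1 at 1.59 stand to the right, Arntl at -1.63 stands to the left, and Dbp at 1.69 and Tef at 1.02 lead the output factors.

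The WT libraries differed from each other for several repressors by more than counting error. The WT male was at 0.52 times the WT female for Per1 (95% counting interval 0.426 to 0.633), from 151 and 325 counts. For Per3 the ratio of WT male to WT female was 0.452 (interval 0.337 to 0.601) and for Nr1d2 0.693 (0.606 to 0.792). Dbp moved with them at 0.67 (0.592 to 0.757), whereas Arntl did not, at 1.11 (0.888 to 1.38). For Ciart, with 15 and 29 counts, the interval of 0.289 to 1.12 around a ratio of 0.579 left no difference detectable at this depth, and for Per2 (34 and 52 counts) it was 0.461 to 1.15. Intervals cover counting error only and compare these libraries, not the sexes. In the db/db group the male exceeded female 1 by 1.61-fold for Ciart (interval 1.33 to 1.95) and female 2 by 1.72-fold (1.42 to 2.09). Nr1d1 ran the other way, with the db/db male at 0.678 times female 1 (0.63 to 0.729) and 0.85 times female 2 (0.787 to 0.917). The db/db females also differed from each other for Nr1d1, with female 2 at 0.798 times female 1 (0.748 to 0.85).

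The contrast of sexes was not used to choose the genes and was tested in a model with genotype. None of the 8 repressors passed by edgeR (0 of 8, with 1 at an unadjusted p under 0.05), against 1.4% of all genes. DESeq2 gave an adjusted p only for Per1, Nr1d1 and Nr1d2 and called none of these 3. Nr1d1 came nearest, with 57.8 TPM in the male and 102.7 and 82.4 TPM in the females of db/db, and 72.9 TPM in the male and 104.7 TPM in the female of WT. It had a log2 fold change of -0.34 for male over female (SE 0.12, edgeR adjusted p = 0.194) and was lower in the male of each genotype. Cry1 had 0.42 (SE 0.20, edgeR adjusted p = 0.359) and Ciart 0.44 (SE 0.25, adjusted p = 0.44). The other repressors lay between -0.15 and 0.13. This contrast rested on single libraries: when either WT library was left out, which leaves the db/db male against the db/db females, Ciart passed (log2 fold change 0.73), and without the db/db male Per1 (-0.95) and Per3 (-1.15) passed as lower in the male.

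The difference between genotypes was also set out within each sex. Ciart was 4.31 higher on the log2 CPM scale in the db/db male than in the WT male, and 2.75 and 2.84 higher in the db/db females than in the WT female. For Per1 the values were 2.36 in males, and 1.0 and 1.15 in females. For Per3 they were 1.63 in males, and 0.012 and 0.05 in females. Per2 showed 2.49 in males, and 1.74 and 2.04 in females. Nr1d2 was 0.84 higher in the db/db male than in the WT male, while both db/db females lay below the WT female, with log2 ratios of -0.11 and -0.0019. A test of the interaction of genotype and sex called Per1 (interaction 1.28, SE 0.28, edgeR adjusted p = 0.00127) and Per3 (1.6, SE 0.37, edgeR adjusted p = 0.00316), 2 of 8 repressors against 1.16% of all genes. It did not call Ciart (1.52, SE 0.53, edgeR adjusted p = 0.167) or Nr1d2 (0.89, SE 0.26, adjusted p = 0.058). The fit had 1 residual degree of freedom, from the db/db females, and 3 of its 4 cells were single libraries, so sex and the individual WT male cannot be told apart. With DESeq2 none of the 8 was called. The pattern was not particular to repressors. The output gene Dbp was 2.35 higher in males, and 1.18 and 1.27 higher in females. Its interaction of 1.13 (SE 0.23) was also called by edgeR and not by DESeq2.

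**Figure D4:**
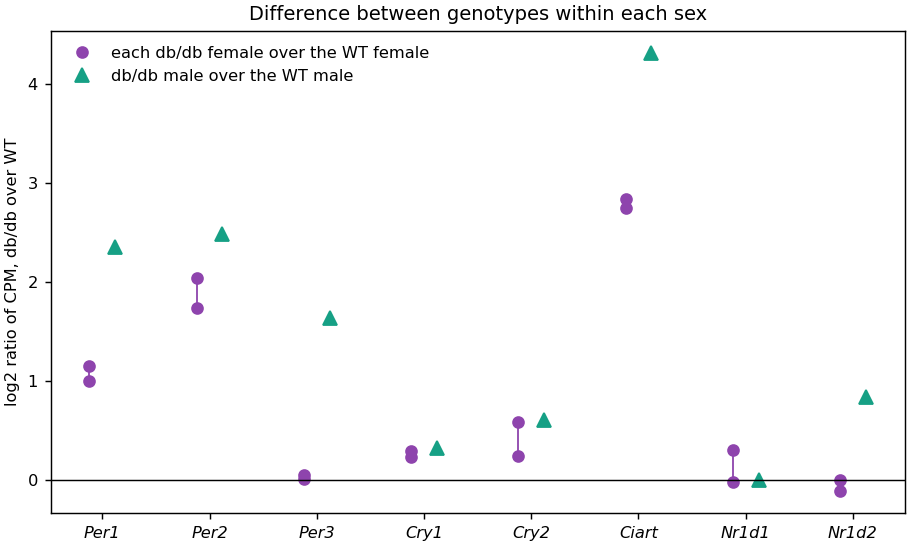
Log2 ratio of CPM of each db/db female over the WT female (circles joined by a line) and of the db/db male over the WT male (triangles) for the 8 repressors. Per1, Per3, Ciart and Nr1d2 have the male value well above the female values, whereas Cry1, Cry2 and Nr1d1 lie between -0.02 and 0.61 in both.

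For each repressor the 3 genes with the most similar profile were sought among 10009 other genes averaging 5 CPM or more, by the root mean square difference of centred log2 CPM over the 5 libraries. Per1 was most like Dbp (difference 0.139), followed by Fam117b (0.264) and Mt2, a metallothionein gene (0.3). Per2 was most like Slc10a6, a steroid sulfate transporter gene (0.0991), then Mt2 (0.183) and Fam107a (0.191). Ciart had the largest differences to its nearest genes, the arrestin-domain gene Arrdc2 (0.402), the stanniocalcin gene Stc1 (0.48) and Fam107a (0.568). The measure is not scaled, so it tends to grow with the size of a change, and Ciart changed most of the 8. The larger differences therefore do not show that the pattern of Ciart is unlike that of other genes. Per3 was nearest to the imprinted gene Peg3 (0.103), Pla2g4e (0.149) and the potassium channel gene Kcnh2 (0.183), all with a low value in the WT male. The flat profiles of Cry1, Cry2, Nr1d1 and Nr1d2 had neighbours at 0.0125 to 0.0732, among them Mrpl52 for Cry1, Slc25a33 for Cry2, Apba1 for Nr1d1 and Safb2 for Nr1d2. A profile over 5 libraries is a short one, and genes with small differences resemble many others.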

How the data were processed

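Poly-A selected RNA was sequenced in 5 mouse heart libraries. Per the submitters' processing notes, HISAT, Bowtie2 and DESeq2 were used on GRCm38.p6; the sources used here name no counting program. Per the file headers, the authors deposited estimated counts, FPKM and TPM per gene and library, with log2 fold changes, q-values and p-values of their genotype comparison. The deposited estimated counts (expected counts) are not normalized, and 91.4% are exactly whole. The deposited FPKM and the authors' fold columns were read but support no value. One line without values was dropped, leaving 17228 genes, and 23 symbols turned into dates were restored by gene ID. The WT male column matches a title spelled with WF.

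Counts were rounded, filtered with filterByExpr and scaled with TMM (edgeR 4.0.16, R 4.3.3). Robust quasi-likelihood F tests, adjusted by Benjamini-Hochberg over 12540 genes, were run for genotype alone, for sex with genotype, and for their interaction, with calls at adjusted p under 0.05. SEs come from the F statistics. A count of 0 allows up to 3 counts, 0.289 to 0.359 CPM, for counting error only. The members and lists were chosen with earlier results of these data known. Genes outside the 8 were named by rule: Arntl, Clock, Npas2, Dbp, Nfil3, every called list gene, up to 2 more per list by smallest p, and 3 nearest profiles per member. Alternatives were DESeq2 1.42.0, limma 3.58.1 (voom, and log2 TPM with pseudocounts of 1 and 0.1 for genes over 1 TPM in 2 libraries, or unfiltered), RLE, library totals, 2 other filters, sex, a replicate block, females alone, a gene length offset (loess, span 0.3, length from counts over TPM) and leaving out each library. The tests were tested on simulated data. Motifs were searched as exact letters.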

Additional observations from a re-analysis of the deposited data

Results flagged for a closer look

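Per1 and Per3 drew attention because the difference between genotypes was larger in the male pair than in the females by a test of the difference itself. The interaction was 1.28 on the log2 scale for Per1 (edgeR adjusted p = 0.00127) and 1.6 for Per3 (edgeR adjusted p = 0.00316), and 1.28 and 1.6 with DESeq2, where neither passed (adjusted p = 1.0 for both). Nr1d2 was added because the db/db male lay above the WT male while both db/db females lay below the WT female, one of them by a log2 ratio of only -0.0019. Its interaction was 0.89 and did not pass (edgeR adjusted p = 0.058). In these 3 genes the WT male was the lowest library in TPM, as it also was for Per2, Cry2 and Ciart. Sex and that library cannot be told apart. Groups of 2 and 3 libraries are too small for a check of single outlying libraries.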

How the results depend on the processing

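Genes called between db/db and WT numbered 129 (84 higher, 45 lower), and 241 by DESeq2, 256 with no filter, 830 with a sex covariate, 974 in the females, 37 on unfiltered log2(TPM + 1), and 25 (without the WT female) to 244 (without the db/db male) when 1 library was left out. The females alone held 1 WT library, so the spread in that fit came only from the 2 db/db females. The labels do not state that these were separate animals. Leaving out a WT library also left 1 WT library. With library totals the split was 59 higher and 85 lower, on log2(TPM + 1) it was 52 and 99, and on log2(TPM + 0.1) 50 and 75. With the title number as a replicate block 80 genes were called, Ciart, Per1, Per2, Arntl, Dbp and Usp2 among them but not Tef; the number does not mark a shared source in the labels, covers 2 db/db libraries, and the deviations of libraries numbered 1 correlated at -0.13 across genes. The 3 called repressors were 3 in every alternative run except unfiltered log2(TPM + 1) (1, Ciart) and leaving out the WT male or the db/db male (2 to 3 over the libraries left out). The 4 called pathway genes became 7 in the fit with sex, 7 in females alone, 0 on unfiltered log2(TPM + 1), and 0 to 5 with a library left out. The sign turned for Cry1 (-0.082 on log2(TPM + 1), filtered or not, and -0.10 on log2(TPM + 0.1)), for Nr1d1 (-0.028 with library totals, -0.15 on the TPM scales, -0.011 to 0.29 with a library left out) and for Nr1d2 (-0.056 in females alone). The median of all genes was itself -0.24 on log2(TPM + 1), -0.17 on it unfiltered, -0.28 on log2(TPM + 0.1) and -0.19 with library totals.

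Genes called by sex numbered 176 (154 higher, 22 lower in males), 289 with DESeq2, 40 with library totals (14 and 26), 419 without a filter, 31 with the length offset, and 38 to 855 with a library left out; the interaction gave 145, and 4 with DESeq2. The sex value turned sign for Per2 (0.058 with the length offset), Cry2 (-0.014 with library totals) and Nr1d2 (0.0060 with DESeq2, 0.0068 with RLE, 0.079 with the length offset). With a library left out it ran from -0.95 to 0.34 for Per1, -0.45 to 0.14 for Per2, -1.15 to 0.46 for Per3, -0.79 to 0.73 for Ciart and -0.53 to 0.36 for Nr1d2. The causes were not tested. Depth limits Ciart and Per2 most, with 15 to 52 counts in WT.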
